A study of Mus musculus with 64 samples.

Results

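A set of 10 genes of the heat shock and chaperone machinery was followed in striatal RNA sequencing libraries of 16 mice. They were taken from a given list of members, and all 10 were among the 23420 genes listed in the deposited tables and among the 15446 genes with enough reads to be tested. The stress-inducible class held 6 genes (Hspa1a, Hspa1b, Hspb1, Dnajb1, Hsph1 and Hsp90aa1), and the constitutive class held 4 (Hspa8, Hsp90ab1, Hspa5 and Hspe1).

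The series compared naive, untreated mice labelled Csnk1e knockout (8 mice) with mice labelled wild type (8 mice), all about 50 days old. Csnk1e encodes casein kinase 1 epsilon, a protein kinase best known for its part in the circadian clock. Striatal punches of both hemispheres were pooled within each mouse and poly(A) RNA was sequenced as single reads of 50 bases. The labels give no strain, no sex and no design of the knockout allele. Each library was run in 4 lanes, and the reads of the 4 lane files were summed, so that 1 mouse is 1 replicate. Lane files whose titles end in _2 are called flow cell 2 below and the others flow cell 1, although the titles name no flow cell. A library is named below by its labelled genotype and mouse number, for example wild type 5.

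The libraries held between 22088005 and 30238947 reads in genes. Ppp1r1b, which encodes the striatal phosphoprotein DARPP-32, averaged 1097 CPM (counts per 1000000 reads in genes), and all 10 medium spiny neuron markers were detected at a testable level. The targeted gene did not follow the labels. Csnk1e ranged from 38.0 to 86.2 CPM, with 7 libraries at 44.9 CPM or below and 9 at 72.2 CPM or above, and both labels occurred in both ranges. Genotype comparisons below are therefore comparisons of labels. In knockout 1 and wild type 7 the choroid plexus marker score, the mean centred log2 CPM of the list, was 3.91 and 4.50, against -1.31 to 0.80 in the other 14 libraries.

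Chaperones bind unfolded proteins and keep them from aggregating. In the cytosol, HSP70 proteins work in cycles with J-domain proteins, which deliver clients, and with nucleotide exchange factors, which release them. HSP90 proteins take over partly folded clients such as kinases and steroid receptors. Under heat or other proteotoxic stress, heat shock factor 1 binds heat shock elements, repeats of GAA and its reverse complement TTC, and switches on the inducible genes. In the endoplasmic reticulum (ER), unfolded proteins instead activate ATF6 and the XBP1 pathway, which raise the ER chaperones through the ER stress element. Neurons depend on the constitutive HSP70 protein HSC70, the product of Hspa8, which also strips clathrin from synaptic vesicles.

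RefSeq promoter windows (GRCm38.p6) were at hand for 7 of the 10 genes. Those with a match are shown, which was a heat shock element in Hspa1a, Hspa1b, Hspb1, Hsph1 and Hspe1 and the ER stress element in Hspa5. Dnajb1, an inducible gene, had neither and is not printed. Each line gives the 150 bases that end 1 base before the annotated start, 5′ to 3′ on the gene's strand, with capitals for heat shock elements, or for the ER stress element in Hspa5.
Hspa1a: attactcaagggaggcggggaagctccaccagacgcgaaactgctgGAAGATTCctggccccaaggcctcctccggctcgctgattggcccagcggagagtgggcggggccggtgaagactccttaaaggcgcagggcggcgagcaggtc
Hspa1b: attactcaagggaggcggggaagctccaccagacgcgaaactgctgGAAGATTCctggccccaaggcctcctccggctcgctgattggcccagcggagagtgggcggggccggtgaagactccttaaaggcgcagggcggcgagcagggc
Hspb1: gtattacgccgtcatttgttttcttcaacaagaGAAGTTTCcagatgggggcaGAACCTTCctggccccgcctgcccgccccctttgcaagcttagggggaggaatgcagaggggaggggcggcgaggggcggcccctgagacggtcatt
Hsph1: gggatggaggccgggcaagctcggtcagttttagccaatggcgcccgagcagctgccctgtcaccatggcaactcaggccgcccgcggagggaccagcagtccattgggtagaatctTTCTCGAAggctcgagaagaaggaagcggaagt
Hspe1: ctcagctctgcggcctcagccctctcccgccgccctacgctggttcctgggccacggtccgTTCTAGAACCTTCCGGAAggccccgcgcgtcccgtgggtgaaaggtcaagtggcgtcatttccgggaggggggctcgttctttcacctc
Hspa5: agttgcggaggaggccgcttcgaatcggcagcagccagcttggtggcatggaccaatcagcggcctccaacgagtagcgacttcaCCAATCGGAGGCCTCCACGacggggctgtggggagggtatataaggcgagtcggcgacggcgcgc

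A heat shock element was searched as GAANNTTC or TTCNNGAA, which together cover both strands, in windows from 250 bases before the start to 50 after. Such a match was present in 15.1% of all 32851 promoter windows. The Hspa1a and Hspa1b stretches (chr17:34972157-34972306 and chr17:34959239-34959388, minus strand) each held 1 match, at position -104 from the start. Over the whole 300-base windows these copies differed at 4 bases and were 98.7% identical. Hspb1 (chr5:135887769-135887918, plus strand) had matches at -117 and -97. Hsph1 (chr5:149636337-149636486, minus strand) had 1 match before the start, at -33, and overlapping matches after it, at 36 and 41, which together made 1 match to a longer element with 1 more unit. Its other annotated start lies close by, and that window held the same matches.

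Hspe1 (chr1:55087998-55088147, plus strand), which encodes the mitochondrial cochaperonin HSP10, had overlapping matches at -89, -84 and -79, although it stands in the constitutive class. Together they formed a run that held 2 matches to the longer element, which was found in 0.603% of all windows. Neither of the Dnajb1 windows held a match. Hspa5 (chr2:34771940-34772089, plus strand) had no heat shock element. It had 1 ER stress element, CCAAT and CCACG with 9 bases between them, at -65, and this arrangement was found in 0.119% of windows. A match of letters describes the window and is not evidence of binding.

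Levels of different genes were compared as RPKM, which is CPM divided by the kilobases of exon. Hsp90ab1, the constitutive cytosolic HSP90 (chr17:45567775-45573271), stood highest at 399 ± 20.9 RPKM (SD, n = 16). Hspa8 (chr9:40800984-40810087) followed at 358 ± 29.5 RPKM. Hsp90aa1, the inducible HSP90 (chr12:110690605-110702728), averaged 247 ± 19.7 RPKM. These cytosolic chaperones were thus the most abundant members, and 1 of them belongs to the inducible class.

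The ER chaperone BiP, encoded by Hspa5 (chr2:34771970-34777547), averaged 59.6 ± 12.8 RPKM. Hsph1 (chr5:149614287-149636376), which encodes the HSP110 nucleotide exchange factor, averaged 42.0 ± 3.78 RPKM. Hspe1 (chr1:55088132-55091307) averaged 37.0 ± 2.40 RPKM. The J-domain protein gene Dnajb1 (chr8:83608193-83612653) stood lower, at 12.9 ± 1.12 RPKM.

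The small heat shock protein gene Hspb1 (chr5:135887919-135889563) averaged 4.52 ± 1.06 RPKM. The classical stress-inducible HSP70 genes were lowest, with Hspa1a (chr17:34969190-34972156) at 0.504 ± 0.122 RPKM. Hspa1b (chr17:34956436-34959238) averaged 0.473 ± 0.216 RPKM. All 10 are protein-coding genes, the coordinates are those of GRCm38, and reads were counted over exons.

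**Figure D1:**
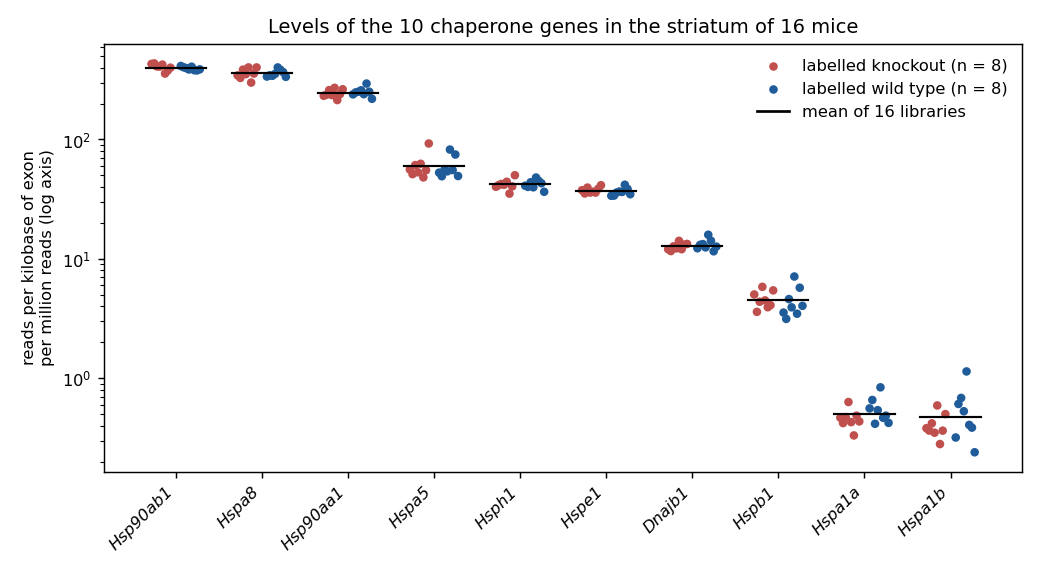
RPKM of each gene in each library, on a log axis. Each point is 1 library, red for labelled knockout and blue for labelled wild type, and each line is the mean of 16 libraries. The genes run from Hsp90ab1 at 399 to Hspa1b at 0.473 RPKM, and the labelled genotypes overlap for every gene.

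Of the 9 neighbouring pairs in this order, 8 differed by an exact two-sided sign-flip permutation test within libraries (adjusted p at most 0.000137). The neighbours came from the same mean levels, and the exon lengths were taken as given. These p-values therefore describe how alike the libraries were and not how certain the order is. Hspa8 exceeded Hsp90aa1 in 16 of 16 libraries, by 0.54 ± 0.09 on the log2 RPKM scale, with p = 3.05e-05, the smallest that 65536 sign assignments allow. Hsp90ab1 exceeded Hspa8 in 14 of 16 libraries, by 0.16 ± 0.12. Hspa1a and Hspa1b were not separated on this scale (log2 difference 0.17 ± 0.46, exact permutation p = 0.166).

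The order depended on the length used. Over the longest transcript Hspa8 came first, at 488 ± 40.2 against 475 ± 24.8 for Hsp90ab1, and this pair was no longer separated (log2 difference -0.04, exact permutation adjusted p = 0.270). Hspa5 and Hsph1 were not separated on that length either (log2 difference 0.08, exact permutation adjusted p = 0.167). Several of these genes have near-identical copies elsewhere, and reads that aligned to more than 1 place were kept apart from the gene counts. Among all 50-base windows of the longest transcript, 33.7% were found in no other gene's transcript for Hspa1a, 37.7% for Hspa1b, 41.5% for Hsp90aa1 and 47.3% for Hspa8. The value was 48.4% for Hspb1, while Hspe1, Hsp90ab1, Dnajb1, Hsph1 and Hspa5 lay between 91.8% and 100%.

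Scaled to these unique windows, the order was Hspa8 at 1046 ± 86.3, Hsp90aa1 at 724 ± 57.9 and Hsp90ab1 at 507 ± 26.5. These values are CPM per kilobase of unique windows and are not RPKM as given above. On that scale Hspa1a stood at 1.52 ± 0.367 and Hspa1b at 1.28 ± 0.585, still the lowest of the 10, and here Hspa1a exceeded Hspa1b (log2 difference 0.33, exact permutation adjusted p = 0.0170), as it did in CPM with no length (0.25, exact permutation adjusted p = 0.0479). Hspa5 and Hsph1 (log2 difference 0.08) and Hsph1 and Hspe1 (-0.0068) were not separated on unique windows (exact permutation adjusted p = 0.122 and 0.810). The levels of Hspa1a, Hspa1b, Hspb1, Hsp90aa1 and Hspa8 per exon length are thus uncertain, and the Hspa1a and Hspa1b transcripts share 1716 windows with each other.

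Within a gene, libraries were compared in CPM. Hspa1a ranged from 0.984 to 1.87 CPM with a median of 1.34 in the 8 labelled knockout libraries. In the 8 labelled wild type libraries it ranged from 1.23 to 2.49 CPM with a median of 1.52. The groups overlapped, and the highest library was wild type 5, with 74 reads, against 25 reads in knockout 6, the lowest.

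Hspa1b ranged from 0.787 to 1.66 CPM (median 1.05) in labelled knockout libraries and from 0.672 to 3.19 CPM (median 1.31) in labelled wild type libraries. Both ends of the range lay among the wild types. Wild type 5 had 95 reads and 3.19 CPM, the next library, wild type 3, had 1.92 CPM, and wild type 8 had 15 reads. The log2 fold change, labelled knockout minus labelled wild type, was -0.42 with an SE of 0.26 for Hspa1b and -0.27 with an SE of 0.15 for Hspa1a (edgeR quasi-likelihood, adjusted p = 0.997 for each). With the reads of both copies summed it was -0.34 (95% interval -0.70 to 0.03, edgeR adjusted p = 0.997). None of these passed the test, and without wild type 5 the values were -0.16 for Hspa1b and -0.15 for Hspa1a.

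Hspb1 ranged from 3.71 to 6.01 CPM (median 4.57) in labelled knockouts and from 3.24 to 7.33 CPM (median 4.11) in labelled wild types. Wild type 5 was again the highest library, and the groups overlapped throughout. Dnajb1 ranged from 37.2 to 45.3 CPM (median 40.0) in labelled knockouts and from 37.1 to 51.0 CPM (median 41.3) in labelled wild types. Its highest library was also wild type 5, which was the deepest library of the series.

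Hsph1 ranged from 256 to 364 CPM (median 302) in labelled knockouts and from 265 to 349 CPM (median 305) in labelled wild types. Its extremes, knockout 6 and knockout 8, were both labelled knockout. Hsp90aa1 ranged from 841 to 1064 CPM (median 937) in labelled knockouts and from 861 to 1155 CPM (median 981) in labelled wild types. Wild type 6 was highest and knockout 6 lowest, and the other libraries of both labels mixed between them.

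Among the constitutive genes, Hspa8 ranged from 1289 to 1727 CPM (median 1524) in labelled knockouts and from 1440 to 1726 CPM (median 1503) in labelled wild types. Its 3 highest libraries, knockout 5, wild type 5 and knockout 8, lay within 1 CPM of each other. Hsp90ab1 ranged from 1069 to 1300 CPM (median 1225) in labelled knockouts and from 1137 to 1237 CPM (median 1174) in labelled wild types. The wild type range lay inside the knockout range.

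Hspa5 ranged from 203 to 391 CPM (median 235) in labelled knockouts and from 208 to 348 CPM (median 231) in labelled wild types. Knockout 8 (391 CPM), wild type 5 (348 CPM) and wild type 7 (316 CPM) stood above the remaining 13 libraries, which ended at 265 CPM in knockout 5. Hspe1 ranged from 52.0 to 61.0 CPM (median 54.6) in labelled knockouts and from 49.7 to 61.6 CPM (median 53.3) in labelled wild types. Its groups overlapped, with wild type 6 and knockout 8 at the top.

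**Figure D2:**
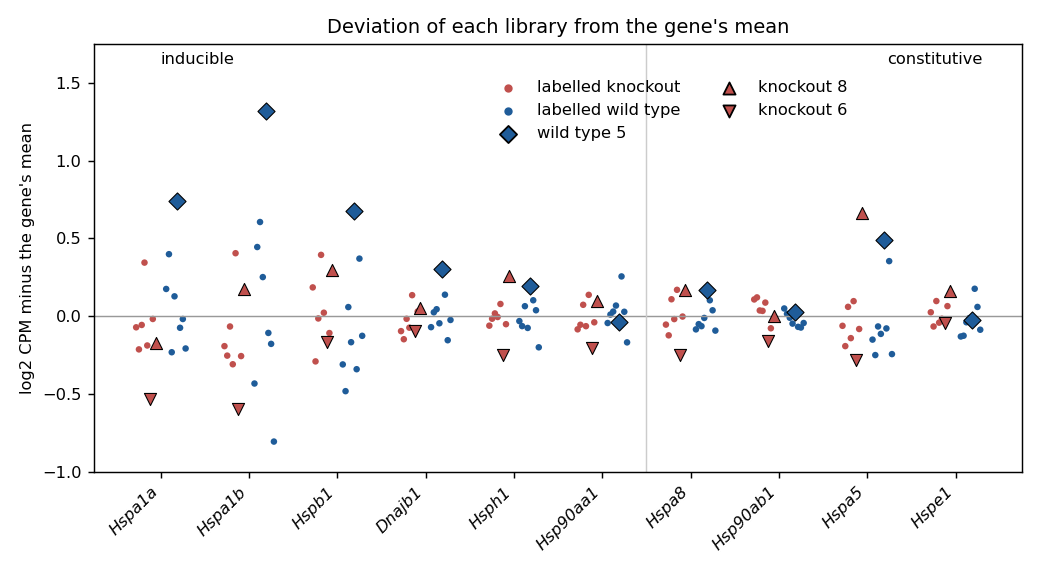
Deviation of each library from the gene's mean, in log2 CPM, for the 6 inducible and the 4 constitutive genes. Points are libraries, and 3 of them carry their own symbols. Wild type 5 is highest for Hspa1a, Hspa1b, Hspb1 and Dnajb1, knockout 8 for Hsph1 and Hspa5, and knockout 6 is lowest for 6 of the 10 genes.

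Across the labelled genotypes, 0 of the 10 genes were called at an adjusted p under 0.05 (edgeR quasi-likelihood test), against 0% of the 15446 genes tested. At an unadjusted p under 0.05 it was also 0 of 10, against 3.41% of all genes (526 genes, or 909 without knockout 7). The 8 genes other than Hspa1a and Hspa1b had log2 fold changes between -0.06 for Dnajb1 and 0.04 for Hspe1. Their 95% intervals were narrow for the abundant cytosolic genes, at -0.05 to 0.13 for Hsp90ab1, -0.12 to 0.12 for Hspa8 and -0.15 to 0.08 for Hsp90aa1. They were wider for Hspa5 (-0.25 to 0.29) and Hspb1 (-0.28 to 0.36). The sign of the fold change differed between analysis settings for Hspb1, Hsph1, Hspa8, Hsp90ab1 and Hspa5. The median over the 10 genes was -0.0016, beside 0.0004 over all genes tested. In bulk tissue, fewer cells of a type and less RNA per cell cannot be told apart.

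**Figure D3:**
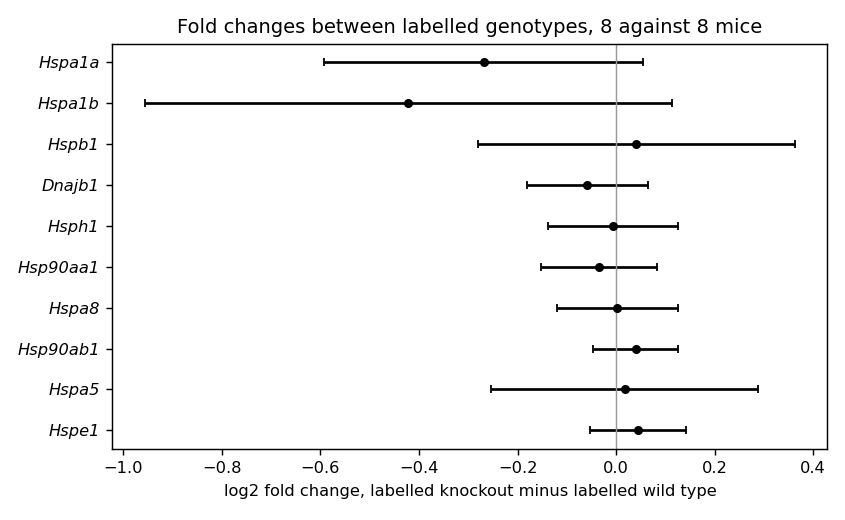
Log2 fold change of each gene, labelled knockout minus labelled wild type, with its 95% interval from the edgeR fit (8 against 8 mice). All 10 intervals include 0, and the widest is that of Hspa1b, from -0.96 to 0.11.

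Hspa1a and Hspa1b were compared in their spread between libraries with Hspa8, their constitutive relative in the cytosol. Both varied more over the 16 libraries, with the spread from read counting included. The SD of log2 CPM over 16 libraries was 0.30 for Hspa1a and 0.52 for Hspa1b, against 0.12 for Hspa8. Exact two-sided permutation tests that swapped the genes within libraries gave adjusted p = 0.00792 for Hspa1a and 0.000549 for Hspa1b. In the HSP90 family the SD was 0.11 for Hsp90aa1 and 0.08 for Hsp90ab1, which was not separated (exact permutation adjusted p = 0.118).

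Few reads add spread of their own, and the swap tests did not take it out. Their p-values therefore cannot tell read counting from differences between mice. The coefficient of variation was 24.2% for Hspa1a, where read counting alone would give 16.6%, and 45.8% for Hspa1b, where counting would give 18.5%. For Hspa8 the values were 8.25% and 0.507%. The edgeR dispersion, which takes counting out, gave a biological coefficient of variation of 0.165 for Hspa1a, 0.319 for Hspa1b and 0.0955 for Hspa8. Without wild type 5 the difference in SD between Hspa1a and Hspa8 was 0.12 in place of 0.18 and no longer passed (exact permutation adjusted p = 0.0748), while that of Hspa1b passed at 0.28.

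Among all 15446 genes, the biological coefficient of variation of Hspa1b lay at the 98.5th percentile, Hspb1 at the 92.8th, Hspa5 at the 90.2nd and Hspa1a at the 86.8th. Hsp90ab1 lay at the 36.0th percentile and Hspe1 at the 25.3rd. Hspa5, a constitutive HSP70 relative, thus stood above Hspa1a on this scale (0.184 against 0.165), and Dnajb1, an inducible gene, lay at the 46.0th percentile. These ranks were taken over genes of all levels and were not matched for level. Hsf5, a heat shock factor gene with a mean of 1.02 CPM, had 0.153 and lay at the 84.1st percentile. The ranks of Hspa1a and Hspa1b, at means of 1.49 and 1.32 CPM, therefore cannot be read apart from their low levels.

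The log2 ratio of reads of an inducible gene to its constitutive relative does not depend on the scaling of libraries. The ratio of Hspa1a to Hspa8 was -10.16 ± 0.25 in labelled knockouts and -9.92 ± 0.30 in labelled wild types (SD, n = 8 each, exact permutation adjusted p = 0.286). That of Hspa1b to Hspa8 was -10.43 ± 0.21 and -10.15 ± 0.65 (exact permutation adjusted p = 0.286). That of Hsp90aa1 to Hsp90ab1 was -0.34 ± 0.11 and -0.27 ± 0.15 (exact permutation adjusted p = 0.286). None of the 3 ratios differed beyond the spread between mice. The highest library was wild type 5 for both HSP70 ratios and wild type 6 for the HSP90 ratio.

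Whether the genes moved together from mouse to mouse was tested over all 45 pairs. Pearson's r was positive in 42 of 45 pairs, and 9 pairs passed at an adjusted p under 0.05 (permutation test, 100000 resamples, adjusted over 45 pairs). By Spearman's rho 14 pairs passed, and 8 passed both. Over all pairs of the 15446 tested genes, r was positive in 49.9%, and 1.79% of pairs reached the smallest r called here, 0.66, against 9 of the 45. Among genes with a mean of at least 5 CPM the shares were 49.8% and 2.52%. The strongest pairs centred on Hsph1, Hspa8 and Hspa5.

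Hsph1 and Hspa8 had r = 0.84 and rho = 0.73 (permutation adjusted p = 0.00135 and 0.0201, n = 16 libraries). Their r was 0.73 without the 2 libraries farthest from the median, 0.87 within labelled knockouts and 0.81 within labelled wild types. Hsph1 and Hspa5 had r = 0.83 and rho = 0.81 (permutation adjusted p = 0.00135 and 0.00765), with 0.73 without the 2 farthest libraries, 0.90 in knockouts and 0.74 in wild types. Hspa8 and Hspa5 had r = 0.77 and rho = 0.82 (permutation adjusted p = 0.00315 and 0.00765), with 0.81, 0.78 and 0.77 in the same order. These 3 pairs kept their call under all 22 alternatives tried.

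The cytosolic HSP90 gene Hsp90aa1 was related to Hspa8, with r = 0.73 and rho = 0.74 (permutation adjusted p = 0.0139 and 0.0183). It was also related to Hsph1, with r = 0.67 and rho = 0.65 (permutation adjusted p = 0.0277 and 0.0365). Both values of r were higher in labelled knockouts (0.96 and 0.85) than in labelled wild types (0.46 and 0.48), and that difference was not tested. Without knockout 6, the lowest library for all 3 genes, r was 0.63 and 0.56 and neither pair passed (permutation adjusted p = 0.0555 and 0.117). Hsp90aa1 and Hsph1 also missed the threshold without wild type 8 (r = 0.60) and without both choroid plexus libraries (r = 0.66).

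Dnajb1 was related to Hspa8, with r = 0.67 and rho = 0.65 (permutation adjusted p = 0.0269 and 0.0365), and r was 0.56 without the 2 farthest libraries. That pair missed the threshold when knockout 2, knockout 5 or wild type 5 was left out (r = 0.64, 0.63 and 0.61). Dnajb1 and Hspa1b had r = 0.73 and rho = 0.61 (permutation adjusted p = 0.0155 and 0.0483). Their r was 0.80 in labelled knockouts and 0.70 in labelled wild types (exact permutation p = 0.0155 and 0.0537, unadjusted). The pair missed the threshold without wild type 5 (r = 0.51, permutation adjusted p = 0.160). On the reads of flow cell 2 alone, 4 of the 9 pairs missed it, namely Dnajb1 with Hspa1b (r = 0.57), Dnajb1 with Hspa8 (0.57), Hsph1 with Hsp90aa1 (0.62) and Hspb1 with Hspa5 (0.55).

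Hspb1 and Hspa5 had r = 0.73 and rho = 0.69 (permutation adjusted p = 0.0139 and 0.0271), with 0.50 in labelled knockouts and 0.93 in labelled wild types. Without knockout 8, wild type 5 and wild type 7 their r was 0.41 (permutation adjusted p = 0.344). Hspa1b and Hsph1 had r = 0.66 and rho = 0.56 (permutation adjusted p = 0.0277 and 0.0678). Without wild type 5 it was 0.57 (permutation adjusted p = 0.0779), and the pair also missed the threshold without knockout 6 (0.62), without wild type 8 (0.59), without the choroid plexus libraries (0.67) and on flow cell 1 alone (0.51).

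Hspa1a, Hsp90ab1 and Hspe1 had no partner that passed. The near-identical copies Hspa1a and Hspa1b had r = 0.56 and rho = 0.23 (permutation adjusted p = 0.0797 and 0.628). Their r was 0.02 without wild type 5 and knockout 6, so that the relation rested on those libraries. The HSP90 relatives Hsp90aa1 and Hsp90ab1 had r = 0.11. The inducible and constitutive classes did not form separate blocks. Mean r was 0.42 over 15 pairs within the inducible class, 0.34 over 6 pairs within the constitutive class and 0.39 over 24 pairs between the classes. On flow cell 2 alone the inducible mean was 0.19.

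**Figure D4:**
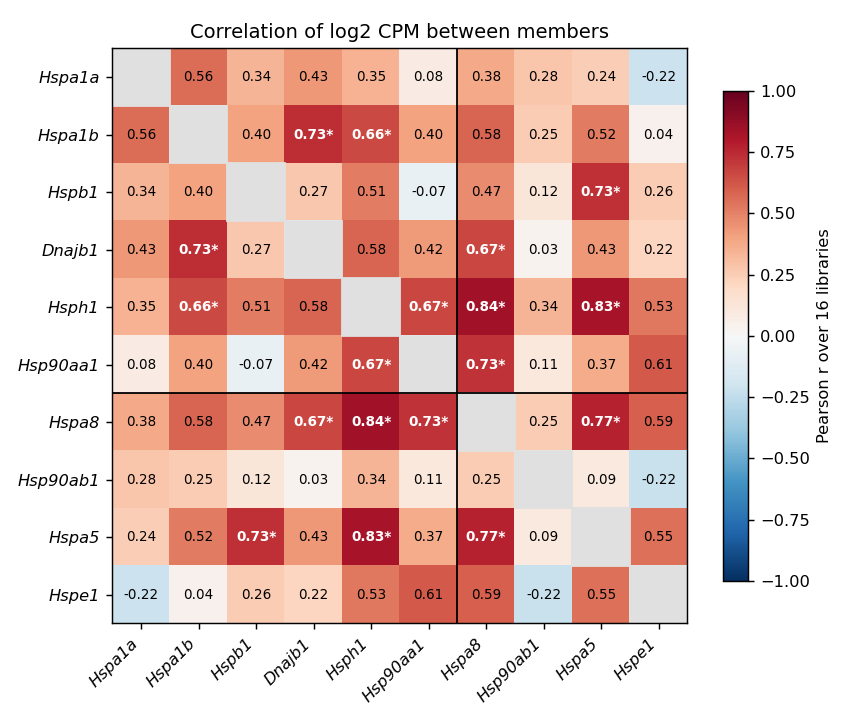
Pearson's r of log2 CPM over 16 libraries for each pair of genes, with lines between the inducible and the constitutive class and an asterisk at an adjusted p under 0.05. The highest value is 0.84, for Hsph1 and Hspa8, and Hsp90ab1 has no value above 0.34.

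The libraries differed in how much of the set they carried. In knockout 3 all 10 genes lay above their median, in knockout 5 it was 9, and in wild type 5 and knockout 8 it was 8. In knockout 6 and in wild type 8 it was 0 of 10, and knockout 6 was the lowest library for Hspa1a, Hsph1, Hsp90aa1, Hspa8, Hsp90ab1 and Hspa5. High and low libraries therefore carried both labels.

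Outside the set, the pattern of the 6 inducible genes, taken as their mean centred log2 CPM, was compared with that of 11794 genes with a mean of at least 5 CPM. The genes most like it were Parg (r = 0.90), Dnaja4 (0.87), Chordc1 (0.86) and Slc4a1ap (0.86), over 16 libraries and with no test. Dnaja4 encodes a J-domain protein, and Chordc1 an HSP90-binding protein. Wild type 5 was the highest library for these 4 genes, with 82.9 CPM of Chordc1 against a mean of 57.2 and 76.7 CPM of Dnaja4 against a mean of 62.1. The genes most like the 4 constitutive ones were Xbp1 (0.94), Dnaja1 (0.90), Insig2 (0.88), Pdia6 (0.88) and Calr (0.88). Xbp1 encodes the transcription factor of the ER stress pathway, Dnaja1 a J-domain partner of HSC70, and Pdia6 and Calr folding proteins of the ER. These means are unscaled, so the most variable genes weigh most. The SD of log2 CPM was 0.27 for Hspa5 against 0.12 for Hspa8, 0.09 for Hspe1 and 0.08 for Hsp90ab1. Among the inducible genes it was 0.52 for Hspa1b, 0.32 for Hspb1 and 0.30 for Hspa1a. It was 0.13 for Hsph1, 0.12 for Dnajb1 and 0.11 for Hsp90aa1. The inducible mean was 0.53 in wild type 5 and 0.12 in the next library, knockout 8. Taken alone, Hspa8 was most like Psmd12 (0.92) and Hsp90ab1 most like Map1b (0.92), genes looked up after the values were seen.

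Hspa5 was set beside the ER stress genes. In the unfolded protein response list, 16 of 17 genes had a positive r with Hspa5, and the median r was 0.78, beside -0.0007 over the 11794 genes compared. Of the list, 9 genes passed (permutation test, adjusted over 11794 genes), and all 9 were positive. Of all genes compared, 2.81% passed in either direction and 2.18% passed with a positive r. This relation was looked at after the values were seen. By both coefficients 1 of the list, Calr, passed. The count of 9 was 3 without knockout 8, 5 without wild type 5 and 5 without wild type 7.

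The closest was Pdia4, an ER disulfide isomerase, with r = 0.95 and rho = 0.83 (permutation adjusted p = 0.0236 and 0.0690). It ranged from 36.4 to 55.2 CPM with a median of 39.7, and its values were 55.2 CPM in knockout 8, 50.8 in wild type 5 and 50.6 in wild type 7. Xbp1 had r = 0.92 and rho = 0.81 (permutation adjusted p = 0.0236 and 0.0690) and stood at 104, 94.3 and 88.1 CPM in the same libraries, against a median of 79.3. Hsp90b1, the HSP90 of the ER, had r = 0.88 and rho = 0.89 (permutation adjusted p = 0.0262 and 0.0590). Manf, Creld2, Pdia3, Pdia6, Calr and Sdf2l1 also passed. Ddit3 (r = 0.41), which encodes the stress factor CHOP, did not pass, nor did Herpud1 (0.16) or Atf4 (-0.51).

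The median r of the list was 0.87 within labelled knockouts and 0.83 within labelled wild types. Without knockout 8, wild type 5 and wild type 7 it was 0.47, 16 of 17 values were positive, and 0 genes of the list passed, as did 0 of all genes compared over those 13 libraries. There the negative value was that of Hyou1 (-0.04), while Atf4 had r = 0.23, so that its negative r rested on those 3 libraries. The choroid plexus score was 4.50 in wild type 7, -0.78 in knockout 8 and -1.27 in wild type 5. It was 3.91 in knockout 1, where Hspa5 stood at 237 CPM, against a median of 234 CPM over 16 libraries. Libraries other than knockout 1 and wild type 7 ranged from -1.31 to 0.80. A link between this score and Hspa5 was not tested. Without both choroid plexus libraries the median r was 0.76 over 14 libraries, 16 of 17 values were positive, and 0 genes of the list and 0 of all genes passed. The smallest p that 100000 resamples allow is 1.0e-05, so after adjustment over 11794 genes no gene can pass on its own. The counts of 0 therefore cannot show that the relation was absent in the remaining libraries.

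**Figure D5:**
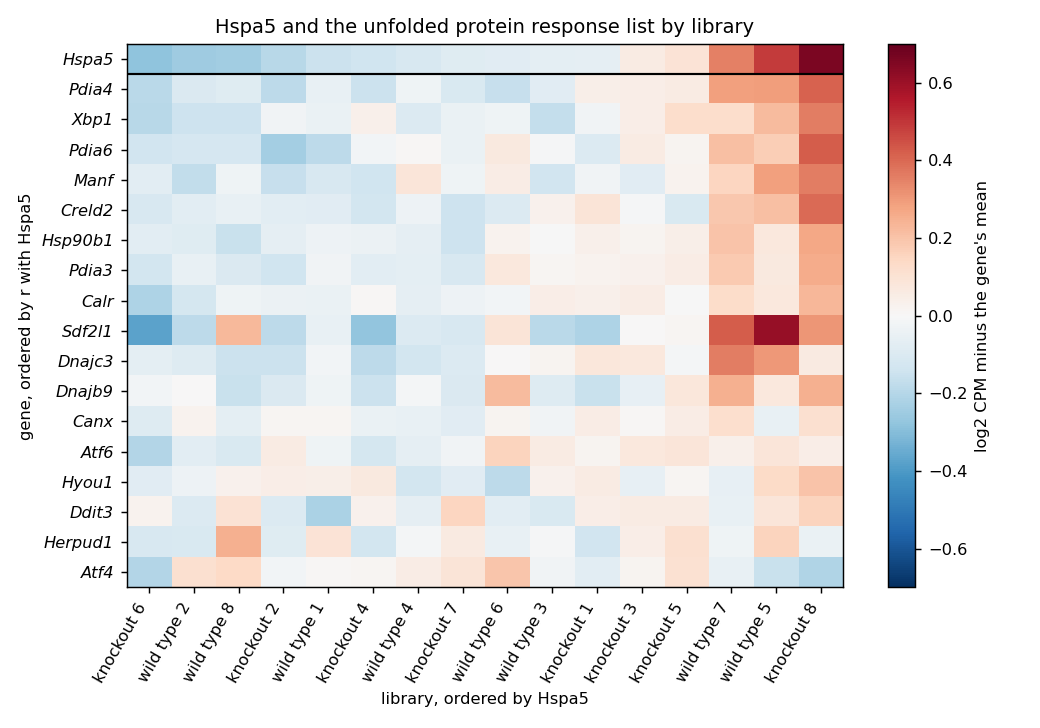
Deviation of log2 CPM from the gene's mean for Hspa5 and the 17 genes of the unfolded protein response list, with libraries ordered by Hspa5 and genes by their r with it. Knockout 8, wild type 5 and wild type 7 at the right are high for Hspa5 and for most genes from Pdia4 to Dnajb9, and Atf4 in the last row runs the other way (r = -0.51).

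Each member was also set beside 11 other measures: Hsf1, Cirbp, Rbm3, Fos, Dbp, 5 cell type scores and the share of reads in no gene. Of these 110 relations, 0 passed by either coefficient. The strongest was that of Dnajb1 and Rbm3, a cold-inducible RNA-binding protein gene (r = 0.80, rho = 0.59, permutation adjusted p = 0.0792 and 0.559). Wild type 5 had 149 CPM of Rbm3 and the other libraries at most 112 CPM, and r was 0.46 without wild type 5 and wild type 6. Hspb1 and the medium spiny neuron score had r = 0.61, and Hspe1 and the endothelial score had r = -0.61 (permutation adjusted p = 0.271 for each). The endothelial score had similar values with Dnajb1 (-0.57), Hsph1 (-0.55), Hsp90aa1 (-0.55) and Hspa8 (-0.54), also at a permutation adjusted p of 0.271. It had r = -0.45 with Hspa5, -0.36 with Hspa1b, -0.16 with Hspa1a, -0.06 with Hspb1 and 0.28 with Hsp90ab1. Whether this score accounts for relations between members was not tested. Hsf1, the gene of heat shock factor 1, had its largest relation with Hsp90aa1 (r = -0.57, permutation adjusted p = 0.271).

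The wider chaperone network was taken from 9 lists with 77 genes, all of them tested, and 0 were called between the labelled genotypes. At an unadjusted p under 0.05 there were 2 of 77, against 3.41% of all genes tested. These were Hspb8, a small heat shock protein gene (log2 fold change 0.16, edgeR adjusted p = 0.997), and Ddit3 (0.11, edgeR adjusted p = 0.997). Among the small heat shock proteins 3 of 7 values were above 0, with Cryab, the lens and glial chaperone alpha B-crystallin, at -0.13.

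Of the HSP70 and HSP110 relatives 5 of 10 values were above 0, with Hspa4 at -0.03 and Hspa1l at -0.07. The HSP90 relatives and cochaperones had 3 of 11 above 0, with Hsp90b1 at 0.01 and Unc45a at 0.06. The J-domain proteins had 1 of 14 above 0 and a median of -0.03, with Dnajc5, a synaptic vesicle cochaperone, at -0.01 and Dnajb11 at -0.07. The HSP70 cochaperones had 3 of 6 above 0, with Bag1 at -0.01 and Sil1 at 0.06. The chaperonins had 5 of 9 above 0, with Hspd1, the partner of Hspe1, at 0.00 and Cct3 at 0.04. Among the heat shock factors and their regulator 2 of 5 were above 0, with Hsbp1 at -0.0041 and Hsf5 at 0.16. The unfolded protein response list had 6 of 17 above 0, with Canx at 0.00, and Rbm3 stood at -0.07. Over all genes tested, 49.7% of the log2 fold changes were below 0. The genes of a list were measured in the same libraries, and no list was tested as a set. None of these values passed the test.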

How the data were processed

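Striatal RNA of 16 mice was measured by RNA sequencing in 64 lane files. The deposited values are raw read counts per gene. Per the submitters' processing notes, FastQC 0.10.1, TopHat2 2.0.0, HTSeq 0.6.1p1 and edgeR 2.14 and the mm10 build were used. For the strand setting and gene annotation, nothing was given in the sources used here. The 5 summary rows of each file were left out (reads in no gene 18.0% to 19.8%, ambiguous 0.765% to 0.834%, not uniquely aligned 21.1% to 22.9% of reads).

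The counts of 4 lanes were summed per mouse. Genes were filtered with filterByExpr, scaled by TMM and tested with edgeR 4.0.16 (quasi-likelihood, two-sided, Benjamini-Hochberg over 15446 genes, adjusted p under 0.05). Log2 CPM used a prior count of 2. Exon lengths came from GENCODE annotation of GRCm38, and all exact and permutation tests were two-sided, the latter with 100000 resamples. Correlations took mice as points. The fits were tested on simulated data. Members, classes and gene lists were chosen with earlier results of these data known. Named genes were the members, the most abundant and the lowest-p gene of each list, and the 5 genes most like each class, of which 1 is not reported here; Hspa5 partners were added after values were seen. Alternatives covered scaling, filter, DESeq2 1.42.0, limma 3.58.1, covariates, flow cells and left-out libraries. Mouse numbers are separate counts within each label, and same-numbered mice did not deviate together (correlations -0.52 to 0.26).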

Additional observations from a re-analysis of the deposited data

Results flagged for a closer look

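Within groups of 8 libraries, 26 sets of values were examined (10 genes and 3 ratios in each labelled genotype) for a library set far apart from the others, and 2 were found; chance flags about 1 in 20 groups. Hspa5 in knockout 8 was at 8.61 log2 CPM, and the next labelled knockout library was at 8.05, a gap of 0.598 of the group's range. The log2 ratio of Hspa1a to Hspa8 in knockout 4 was -9.66, and the next was at -10.06, a gap of 0.530 of the range. That ratio rests on 44 reads of Hspa1a. Wild type 5, the highest library for 4 genes, was not set apart by this measure in its own group.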

How the results depend on the processing

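In all settings 0 genes were called between the labelled genotypes, and no member passed. The number of genes at an unadjusted p under 0.05 was 526, 356 with a replicate block, 323 with library number and 320 with endothelial and oligodendrocyte scores as covariates, 498 by DESeq2, 683 by limma-voom, and 362 to 909 when 1 library was left out, the highest without knockout 7. The mouse numbers pair no animals, so the paired fit with the replicate block has no basis in the design, and it changed no other call. The sign of small fold changes turned. Hspa8 was -0.00055 under RLE scaling, -0.00055 by DESeq2, -5.90e-05 without the count filter, -0.00097 with the replicate block and -2.36e-06 on flow cell 1. Hspb1 was -0.015 with cell type scores and -0.14 on flow cell 1, Hsph1 0.016 with library number and 0.0074 without the choroid plexus libraries, and Hsp90ab1 -0.0039 with library number. With 1 library left out, the ranges were -0.026 to 0.034 for Hspa8, -0.022 to 0.17 for Hspb1, -0.050 to 0.025 for Hsph1 and -0.10 to 0.10 for Hspa5. Over reads with no length, the log2 difference was -0.36 for Hsp90ab1 over Hspa8 and -0.30 for Hspa5 over Hsph1. It was -0.035 for Hsp90ab1 over Hspa8 on the longest transcript and -1.04 on unique windows, where Hsph1 over Hspe1 was -0.0068. Of the 45 pairs, 5 passed on flow cell 2 in place of 9, and 6 to 12 with 1 library left out. The spread of Hspa1a over Hspa8 was 0.14 without knockout 8, wild type 5 and wild type 7 (exact permutation adjusted p = 0.0524), an alternative chosen after seeing the data, and 0.12 to 0.20 with 1 library left out. The Hspa5 list count of 9 was 0 without the choroid plexus libraries, 4 on flow cell 2 and 3 to 10 with 1 library left out, with 3 without knockout 8, 5 without wild type 5 and 5 without wild type 7. The causes were not tested. Depth limits Hspa1a and Hspa1b, with 25 to 74 and 15 to 95 reads a library.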
